A study of Mus musculus with 8 samples.

Results

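The gene set described here holds 35 cell cycle genes of the 28692 genes in the count matrix, 15 of them tied to the passage from G1 into S phase and 20 to G2 and mitosis. They were read in tumor endothelial cells of mice, and all 35 were present in the matrix. The tumors were MT-ret melanomas, grown from fragments placed under the flank skin of 10 mice of the strain C57BL/6N. Endothelium of blood vessels (BEC) and of lymphatic vessels (LEC) was sorted from them by flow cytometry and sequenced as single cells with droplet 3′ chemistry. No untreated tissue, second genotype or time series is among the groups, so the comparisons are between the sorts and between cells of a sort. A cell was kept when its summed counts of the pigment cell genes Dct, Tyrp1, Pmel and Tyr were under 20. This left 3206 of 3228 cells in the BEC sort and 4128 of 4407 cells in the LEC sort.

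A dividing cell copies its DNA in S phase and separates the copies in mitosis. Genes for the replication machinery and for nucleotide supply are switched on by E2F transcription factors around the G1 to S boundary. Genes for mitosis are held down early in the cycle and come up in G2, largely through promoter elements called CHR (cell cycle genes homology region) and CCAAT boxes, the latter bound by NF-Y. Most endothelial cells of an adult vessel do not divide. Vessels of a growing tumor hold dividing endothelial cells, both in sprouting blood vessels and in lymphatics.

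Some promoters of the members show these elements, and a few that hold E2F or CHR motifs are printed as examples. RefSeq promoter windows on GRCm38.p6, from 250 bases before to 50 after the annotated start, were matched by symbol for 29 of the 35 members, 12 in the G1/S list (13 windows) and 17 in the G2/M list. Each stretch below runs 5′ to 3′ on the gene's strand from 160 bases before to 20 bases after the start, and capitals mark E2F, CHR and CCAAT motifs on either strand. Mcm5 lies at chr8:75109349-75109528 on the plus strand. Mcm6 (chr1:128359686-128359865), Cdk1 (chr10:69352893-69353072), Ccnb2 (chr9:70421535-70421714) and Cdc20 (chr4:118437324-118437503) lie on the minus strand.
Mcm5: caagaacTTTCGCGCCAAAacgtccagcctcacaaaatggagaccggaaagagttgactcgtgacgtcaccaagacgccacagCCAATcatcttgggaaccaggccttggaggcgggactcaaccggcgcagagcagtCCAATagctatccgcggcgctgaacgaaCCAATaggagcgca
Mcm6: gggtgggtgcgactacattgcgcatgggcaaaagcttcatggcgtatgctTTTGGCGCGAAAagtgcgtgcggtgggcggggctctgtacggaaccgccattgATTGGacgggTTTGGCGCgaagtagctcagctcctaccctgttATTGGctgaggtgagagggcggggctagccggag
Cdk1: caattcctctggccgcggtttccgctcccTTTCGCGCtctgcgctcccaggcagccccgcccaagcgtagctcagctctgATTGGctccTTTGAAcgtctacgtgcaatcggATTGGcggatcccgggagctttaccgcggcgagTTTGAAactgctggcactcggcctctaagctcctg
Ccnb2: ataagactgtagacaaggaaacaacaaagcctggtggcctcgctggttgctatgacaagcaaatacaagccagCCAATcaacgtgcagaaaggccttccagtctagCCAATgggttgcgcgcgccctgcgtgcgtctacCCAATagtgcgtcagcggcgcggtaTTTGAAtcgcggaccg
Cdc20: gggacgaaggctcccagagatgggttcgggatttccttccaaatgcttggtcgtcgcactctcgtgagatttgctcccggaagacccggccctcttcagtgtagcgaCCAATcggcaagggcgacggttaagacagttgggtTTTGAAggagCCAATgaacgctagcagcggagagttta

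In the helicase genes Mcm5 and Mcm6 the longest capital run holds a pair of overlapping E2F motifs, 1 on each strand, 153 and 149 bases before the start in Mcm5 and 110 and 106 before it in Mcm6. In the mitotic genes Cdk1, Ccnb2 and Cdc20 the letters TTTGAA are a CHR element, 71 and 15 bases before the start in Cdk1, 18 before in Cdc20 and 5 after in Ccnb2, with CCAAT boxes (ATTGG on the other strand) nearby. Those of Ccnb2 lie 87, 54 and 21 bases before the start, and Cdc20 has one on each side of its CHR, at 53 and 8 bases before the start. An E2F motif (TTTGGCGC, TTTCCCGC or TTTCGCGC) was present in 5 of 13 G1/S windows, in 1 of 17 G2/M windows (that of Cdk1) and in 1.84% of all 32851 promoter windows. A CHR motif (TTTGAA or TTCGAA) was present in 13 of 17 G2/M windows (76.5%), in 2 of 13 G1/S windows (15.4%) and in 19.2% of all windows. Within 50 bases of the start it was found in 12 of the 17 G2/M windows, in 0 of the G1/S windows and in 5.51% of all windows. CCAAT was present in 88.2% of G2/M windows, 69.2% of G1/S windows and 37.4% of all windows. The short GC-rich motif GGCGG did not separate the lists, with 94.1% and 92.3% of windows against 48.8% of all. These are matches of letters in short windows and do not show that a factor binds there.

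The labels list 4 libraries for each sort, but the cell names carry only the sort. Each sort was therefore 1 sample, no test between sorts or classes was possible, and no difference below has a replicate check. The BEC sort was deeper, with a median of 19312 counts and 2837.5 genes per cell against 10594.5 counts and 1890 genes in the LEC sort, so shares of cells are given after thinning every cell to 5000 counts. Sorted cells matched their labels, with more summed counts of their own lineage's markers than of the other's in 99.5% of BEC-sort and 93.4% of LEC-sort cells. Keratinocyte markers were at 0 in both sorts, mural markers summed to 204 CPM (counts of a gene per 1000000 counts of the sort) in BEC and 57.7 in LEC, and fibroblast markers to 22.9 and 210 CPM. Dcn alone made up 185 of the 210 CPM of fibroblast markers in LEC, and was at 7.38 CPM in BEC. Of the cell barcodes, 34 occurred in both sorts. Single entries of the matrix were most often 3 counts (18.3% in BEC and 21.0% in LEC) and dropped sharply after 4 (5.52% and 4.80% at 5 counts). That is the pattern 1 molecule counted in up to 4 libraries would give, which was not tested, so every interval on a level or ratio below was computed on the counts divided by 4. These 95% intervals, and the exact binomial (Clopper-Pearson) ones on shares of cells, hold counting error alone. Thinning evens out counts and not molecules, so thinned shares may still carry the unequal depth. Entries of genes found in 20 to 100 cells averaged 2.34 counts in BEC and 2.60 in LEC. Counts divided by 4 and rounded up were tried for the BEC over LEC ratios, where 30 of the 35 members were above 1. Of the thinned shares, they were tried only for the shares of cells high in a list.

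Summed over their members, both phase lists were higher in blood than in lymphatic endothelium, by about the same factor. The G1/S members summed to 528 CPM in BEC against 410 in LEC, a ratio of 1.29 (1.25 to 1.33). The G2/M members summed to 661 CPM in BEC against 505 in LEC, a ratio of 1.31 (1.27 to 1.35). A level summed over a sort cannot tell more cycling cells from more RNA per cycling cell, and the cells are counted further below. The median member was 0.44 log2 units higher in BEC in the G1/S list (15 members) and 0.37 in the G2/M list (18 members at 5 CPM or more), while the median of all 9892 genes at that level was −0.12. Of the 33 members at that level, 27 were higher in BEC and 6 in LEC. The BEC level was the larger one for 40.8% of all genes (4039) and the LEC level for 5853.

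**Figure D1:**
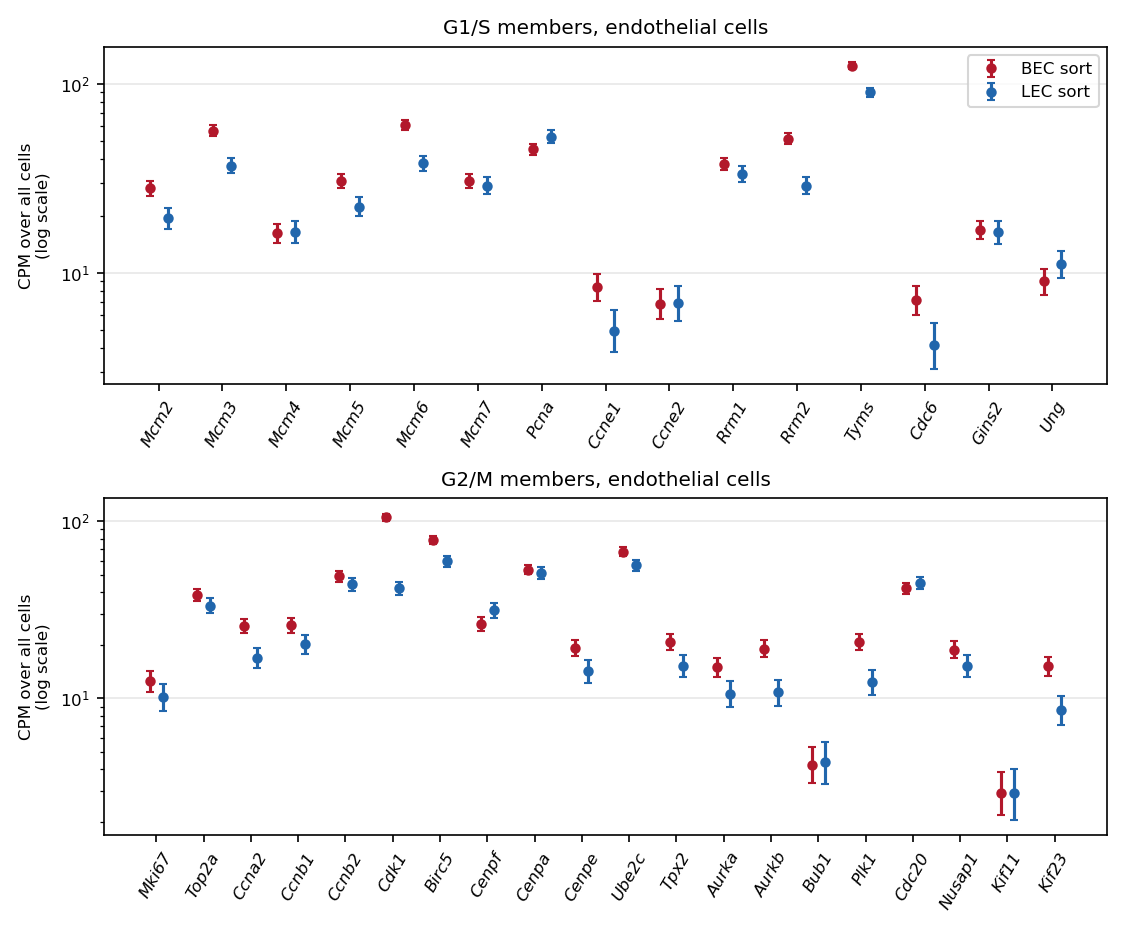
CPM of each member over all endothelial cells of the BEC sort (red) and the LEC sort (blue), log axis; bars are counting intervals on counts divided by 4. Cdk1 is the member whose sorts lie farthest apart, at 106 against 42.0 CPM, while Pcna and Cenpf sit higher in the LEC sort.

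Among the G1/S members, the genes of the MCM helicase, which unwinds DNA at the replication fork, did not move as a block. Mcm6 (chromosome 1, 128331590 to 128359664) was at 60.8 CPM in BEC (57.2 to 64.5) against 37.9 in LEC (34.6 to 41.4), a ratio of 1.60 (1.44 to 1.79). Mcm3 (chromosome 1, 20802968 to 20820312) was at 56.5 CPM in BEC against 36.9 in LEC, a ratio of 1.53 (1.37 to 1.71). Mcm2 (ratio 1.44) and Mcm5 (ratio 1.37) were also higher in BEC with intervals above 1, whereas the intervals of Mcm4 (0.98) and Mcm7 (1.06) held 1. Mcm7 overlaps Cops6 and Ap4m1 on the other strand, and whether counting used strand is not stated in the labels; the same holds for Ccne2, Gins2, Ccna2, Ube2c, Cdc20 and Nusap1, which also overlap a gene on the other strand.

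Of the genes of nucleotide supply, Rrm2 and Tyms were higher in BEC with intervals above 1. Rrm2, the small subunit of ribonucleotide reductase (chromosome 12, 24708241 to 24714146), was at 51.0 CPM in BEC (47.8 to 54.5) against 28.9 in LEC (26.0 to 32.0), a ratio of 1.77 (1.56 to 2.0). Its partner Rrm1 was at 37.6 and 33.4 CPM, and its interval of 0.996 to 1.28 held 1. Tyms, thymidylate synthase, was at 124 CPM in BEC against 89.9 in LEC, a ratio of 1.38 (1.29 to 1.48).

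The remaining G1/S members act in initiation, at the fork and in repair. Ccne1, a cyclin that activates Cdk2 at S phase entry, was at 8.42 CPM in BEC against 4.95 in LEC (ratio 1.70, 1.26 to 2.32), while Ccne2 was at 6.86 and 6.95 CPM. Cdc6, which loads the helicase onto origins, had a ratio of 1.73 (1.24 to 2.42), and Gins2, a subunit of the active helicase, had 1.03 (0.86 to 1.23). Pcna, the sliding clamp of the polymerases (chromosome 2, 132249162 to 132253314), was the G1/S member whose interval lay on the LEC side, at 44.8 CPM in BEC (41.8 to 48.1) against 52.4 in LEC (48.5 to 56.5). The repair enzyme gene Ung was at 9.0 CPM in BEC against 11.1 in LEC, with a ratio of 0.81 (0.64 to 1.02).

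The kinase Cdk1, which drives entry into mitosis, differed more between the sorts than any other member. It was at 106 CPM in BEC (101 to 111) against 42.0 in LEC (38.6 to 45.7), a ratio of 2.51 (2.28 to 2.77). It lies on chromosome 10 from 69335146 to 69352938 on the minus strand, and no other annotated gene overlaps it. Its cyclin partners were closer to even. Ccna2 was at 25.6 and 16.9 CPM (ratio 1.51, 1.28 to 1.79), Ccnb1 at 25.8 and 20.2 CPM (1.28, 1.1 to 1.5) and Ccnb2 at 48.9 and 44.1 CPM (1.11, 0.997 to 1.24).

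Aurkb, Plk1, Kif23, Aurka, Tpx2 and Birc5 were higher in BEC with intervals above 1, while the intervals of the kinase Bub1 (0.97, 0.68 to 1.39) and the motor Kif11 (1.01, 0.65 to 1.58) held 1. Aurkb, the kinase of the chromosomal passenger complex, was at 19.1 CPM in BEC against 10.8 in LEC, a ratio of 1.77 (1.45 to 2.17). Plk1, another mitotic kinase, had a ratio of 1.69 (1.40 to 2.05), and Kif23, a kinesin of the midzone needed for cytokinesis, had 1.76 (1.40 to 2.21). Aurka had 1.41 and its activator Tpx2 had 1.36. Birc5 (survivin), which sits with Aurkb in the passenger complex, was at 78.8 and 59.4 CPM, a ratio of 1.33 (1.21 to 1.45).

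Cenpf, a large kinetochore protein (chromosome 1, 189640606 to 189688086), was at 26.5 CPM in BEC (24.1 to 29.0) against 31.5 in LEC (28.5 to 34.7), a ratio of 0.84 (0.73 to 0.96), but the ratio was 1.02 without cells that also carried markers of another type. Cdc20, the activator of the anaphase-promoting complex, was at 41.9 and 44.8 CPM (0.93, 0.84 to 1.04). Cenpa, the centromeric histone, had a ratio of 1.04 (0.94 to 1.16). Ube2c, the conjugating enzyme of the same complex as Cdc20, had 1.19 (1.09 to 1.31), Cenpe 1.36 (1.13 to 1.64), Top2a, which untangles DNA, 1.14 (1.01 to 1.29) and Nusap1, a spindle protein, 1.23 (1.03 to 1.48). The interval of Mki67 (1.23) held 1. Bub1 and Kif11 were under 5 CPM in both sorts.

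By the fold bounds used, few members stood apart. Cdk1 was the 1 member 2-fold or more higher in BEC, where 9.0% of all genes at 5 CPM or more were, and 0 members were 2-fold or more higher in LEC, where 12.5% of all genes were. The BEC count was 3 with the mean of per-cell CPM, 3 without cells of other types and 4 without the deepest 5% of cells. At the looser bound of 1.5-fold, 5 G1/S members (Mcm3, Mcm6, Ccne1, Rrm2 and Cdc6) and 5 G2/M members (Ccna2, Cdk1, Aurkb, Plk1 and Kif23) were higher in BEC, against 14.5% of all genes. None was 1.5-fold higher in LEC, against 21.8% of all genes. Without cells that also carried markers of another type the G2/M count was 9, and it was also 9 without the deepest 5% of cells.

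The members were held by few cells. After thinning, a cell was called G2/M-high with 5 or more counts of the G2/M members, G1/S-high with 5 or more of the G1/S members and fewer than 5 of the G2/M members, and low with at most 1 count of all members together. If a molecule gave several counts, 5 counts may stand for as few as 2 molecules. G2/M-high cells were 276 of 3206 in BEC (8.61%, 7.66 to 9.63) and 210 of 4128 in LEC (5.09%, 4.44 to 5.80), so the BEC share was larger and the intervals did not overlap. The BEC share stayed above the LEC share at cuts of 3, 10 and 20 counts. Unthinned, the shares at 5 counts were 24.3% in BEC and 8.75% in LEC, a wider gap between sorts of unequal depth.

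G1/S-high cells were 6.27% in BEC (201 cells, 5.45 to 7.16) and 5.79% in LEC (239 cells, 5.10 to 6.55), with overlapping intervals. Their order turned at a cut of 3 counts, with 15.3% in BEC and 16.7% in LEC. Low cells made up 46.6% of BEC and 56.7% of LEC. Macrophage markers summed to 313 CPM in G1/S-high LEC cells and 41.0 CPM in low LEC cells, and their part in the LEC share was not tested. Doublets were not removed, and no cell type in these data is known to lack cell cycle RNA, so the share that free RNA alone would give could not be measured.

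**Figure D2:**
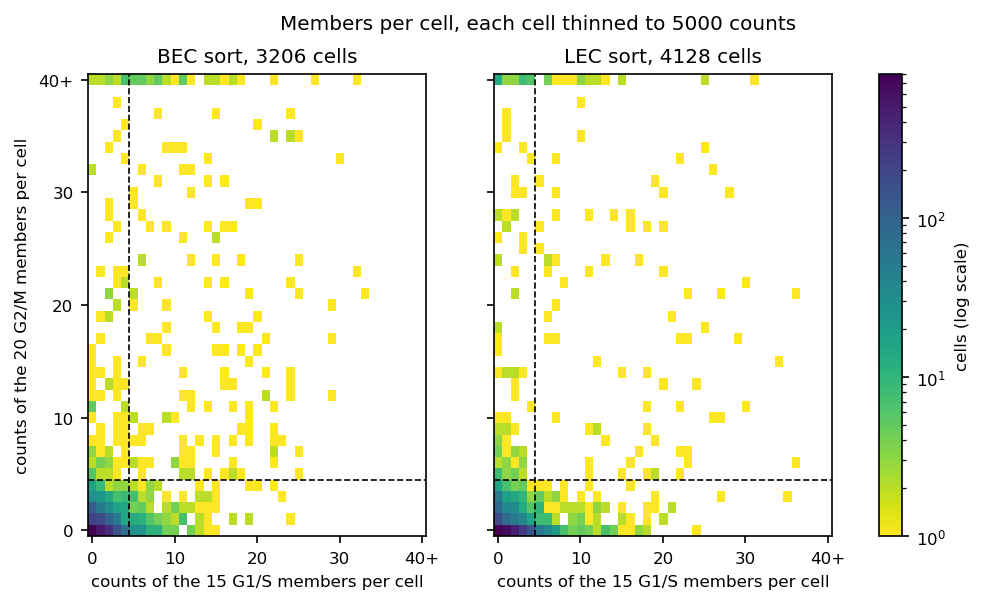
Number of cells (colour, log scale) by their counts of the 15 G1/S members (horizontal) and the 20 G2/M members (vertical) after thinning to 5000 counts, one panel per sort, with values of 40 or more pooled at the edge and dashed lines at the cut of 5. Most cells lie at the lower left, and the upper right quadrant holds 174 cells in the BEC sort and 93 in the LEC sort.

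The 2 programs met in the same cell more often in blood endothelium. Cells high in both lists numbered 174 in BEC and 93 in LEC. They were 63.0% of the BEC cells with 5 or more G2/M counts (57.1 to 68.8) and 44.3% of such LEC cells (37.5 to 51.3), and these intervals did not overlap. Of the cells with 5 or more G1/S counts they were 46.4% in BEC (41.3 to 51.6) and 28.0% in LEC (23.2 to 33.2). Cells high in the G2/M list alone were 102 in BEC and 117 in LEC. Before thinning, cells high in both were deeper than the rest of their sort, with a median of 31569 counts in BEC and 21044 in LEC. Cells high in G2/M alone had medians of 19945 and 11931. The part of depth or of doublets in these shares was not tested. Leaving out the deepest 5% of cells gave G2/M-high shares of 7.55% in BEC and 4.18% in LEC. The shares of cells high in both lists were not recomputed in any alternative. Own-lineage cells were 88.2% of LEC cells high in both and 92.9% of low LEC cells, and 98.9% and 99.5% in BEC.

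Cells picked on a list's own counts held a larger part of the G2/M list than of the G1/S list, a description in which the picking itself plays a part. G2/M-high cells held 84.3% of the sort's G2/M counts in BEC and 87.2% in LEC, and cells with 5 or more G1/S counts held 60.8% of the G1/S counts in BEC and 53.3% in LEC. The G2/M-high cells held 44.3% of the G1/S counts in BEC and 33.0% in LEC, and low cells still held 12.8% and 14.7% of the G1/S counts. With classes redrawn without the member read, every G2/M member had more than 70% of its counts in cells high in either list, from 71.3% (Cdk1) to 96.0% (Bub1) in BEC. Among G1/S members the share ran from 43.2% (Mcm6) to 92.6% (Rrm2) in BEC and from 33.9% (Pcna) to 88.7% (Rrm2) in LEC.

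To keep a member's own counts out of its classes, classes were redrawn without that member. They still rested on the other members of its list, so differences between the classes along a list were partly built in. All 20 G2/M members were then at least 2-fold higher in G2/M-high than in G1/S-high cells in both sorts, with intervals above 1, where 4.41% of non-member genes in BEC and 6.58% in LEC were 2-fold higher, and 18 members in BEC and 19 in LEC were at least 10-fold higher. Ccnb1 was at 1.99 CPM in G1/S-high and 209 CPM in G2/M-high BEC cells, and at 4.44 and 249 CPM in LEC. Cdk1 was the least selective member in BEC, with 151 CPM in G1/S-high and 600 CPM in G2/M-high cells, a ratio of 3.98 (3.44 to 4.63). In LEC it was at 50.4 and 467 CPM, a ratio of 9.26 (6.70 to 13.1).

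**Figure D3:**
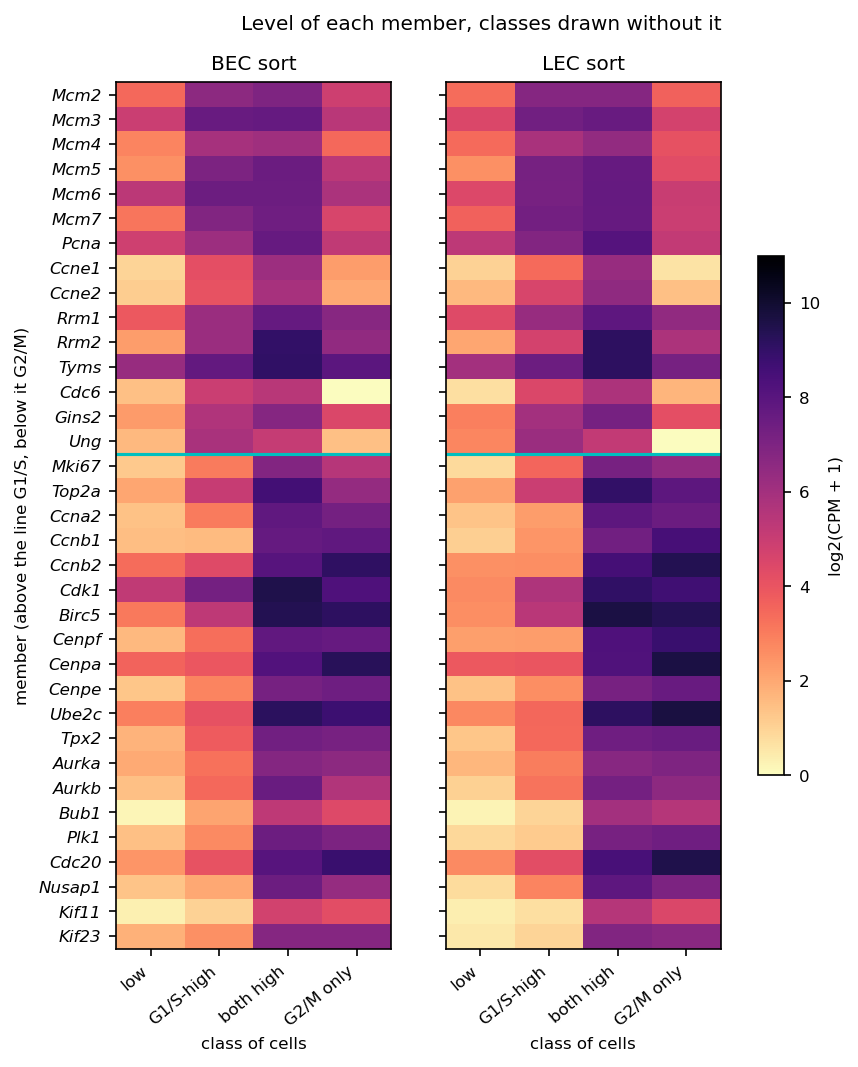
Level of each member, as log2(CPM + 1), in low cells, G1/S-high cells, cells high in both lists and cells high in G2/M members only, one panel per sort, with classes drawn without the member shown. Most members above the line are darkest in the G1/S-high and both-high columns, members below it in the both-high and G2/M-only columns, and Cdk1 in low cells is darker in the BEC panel (35.9 CPM) than in the LEC panel (5.50 CPM).

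The G1/S members did not mirror this. All 15 were at least 2-fold higher in G1/S-high than in low cells in both sorts, where 3.60% of non-member genes in BEC and 3.81% in LEC were. All 15 were also at least 2-fold higher in G2/M-high than in low cells, where 7.21% and 6.66% of non-member genes were. Ung was the clearest G1/S-high gene, at 56.3 CPM there and 24.2 CPM in G2/M-high BEC cells (ratio 0.43, 0.29 to 0.63) and at 73.6 and 18.8 CPM in LEC (0.26, 0.14 to 0.44). Mcm3 was lower in G2/M-high cells as well, with ratios of 0.79 in BEC and 0.70 in LEC and intervals under 1. Rrm2 went the other way, from 73.0 CPM in G1/S-high to 362 CPM in G2/M-high BEC cells (4.97-fold) and from 25.3 to 319 CPM in LEC (12.6-fold). Ccne1, Ccne2, Rrm1, Tyms and Pcna were also higher in G2/M-high cells in both sorts with intervals above 1. In all, 9 G1/S members in BEC and 8 in LEC were higher in G2/M-high cells, where 47.0% and 48.3% of non-member genes were, but this count rested on the cut, being 14 in both sorts at 3 counts and 3 in both at 10 counts.

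Splitting the G2/M-high cells placed those G1/S counts, a split chosen after the class levels had been seen. The split is drawn on G1/S counts, so lower G1/S members in G2/M-only cells were partly built in. All 15 G1/S members were lower in cells high in G2/M members alone than in cells high in both lists, in both sorts and with intervals under 1, where 7.20% of non-member genes in BEC and 5.40% in LEC had such intervals. Rrm2 was at 506 CPM in cells high in both and 88.1 CPM in G2/M-only BEC cells, and at 562 and 52.9 CPM in LEC. Cdc6 had 0 counts in G2/M-only BEC cells, which allows up to 5.08 CPM, against 41.7 CPM in cells high in both. Ung had 0 counts in G2/M-only LEC cells, which allows up to 6.74 CPM, against 34.7 CPM. Rrm1 and Tyms kept the most, with 0.52 and 0.46 of their level in BEC and 0.38 and 0.26 in LEC.

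The mitotic members also differed along this split. Cenpa was higher in G2/M-only cells than in cells high in both, at 613 against 291 CPM in BEC (ratio 2.11, 1.81 to 2.45) and 789 against 301 CPM in LEC (2.62, 2.16 to 3.19). Ccnb2 had ratios of 2.06 and 1.84 and Cdc20 had 1.71 and 2.12, all with intervals above 1. Ccnb1 was 2.28-fold higher in G2/M-only LEC cells (1.74 to 3.01), while in BEC its ratio was 1.11 (0.89 to 1.36). Top2a was lower there, at 82.6 against 377 CPM in BEC (0.22, 0.16 to 0.30) and 237 against 513 CPM in LEC (0.46, 0.37 to 0.58), and so were Aurkb (0.26 and 0.61), Nusap1 (0.46 and 0.56), Mki67 (0.38 and 0.61), Cdk1 (0.43 and 0.76) and Birc5 (0.84 and 0.81). Ube2c pointed in opposite directions, with 0.75 (0.65 to 0.86) in BEC and 1.46 (1.25 to 1.71) in LEC. Across the members, the log2 ratios of G2/M-high over G1/S-high cells in BEC and LEC had a Pearson correlation of 0.94 over 35 genes, which share cells within a sort and are not independent. The classes of both sorts were drawn on these same 2 lists, so the gap between the lists, and with it this correlation, was partly built in.

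Within G2/M-high cells the difference between the sorts was not that of the whole sorts. There 17 of 20 G2/M members were lower in BEC than in LEC, 10 of them with intervals under 1, and the median ratio was 0.83. Of non-member genes in these cells 58.0% were lower in BEC, 19.1% with intervals under 1, and their median ratio was 0.93. Kif23 counts among the 17 although its levels were even. Cenpf was at 207 CPM in BEC against 372 in LEC G2/M-high cells, a ratio of 0.56 (0.48 to 0.64). Cdc20 had 0.62 (0.55 to 0.69), Ccnb2 0.66 (0.59 to 0.75), Cenpa 0.73 (0.65 to 0.82), Top2a 0.76 (0.66 to 0.87) and Ube2c 0.77 (0.70 to 0.85). Cdk1 was the exception with an interval above 1, at 600 CPM in BEC against 467 in LEC (1.28, 1.15 to 1.44). Of the G1/S members in these cells, Mcm2 (1.52), Mcm3 (1.35) and Tyms (1.15) were higher in BEC with intervals above 1, as were 12.8% of non-member genes, and 12 had intervals that held 1. G2/M-high cells were a larger share of the BEC sort, and that share held more cells high in both lists.

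**Figure D4:**
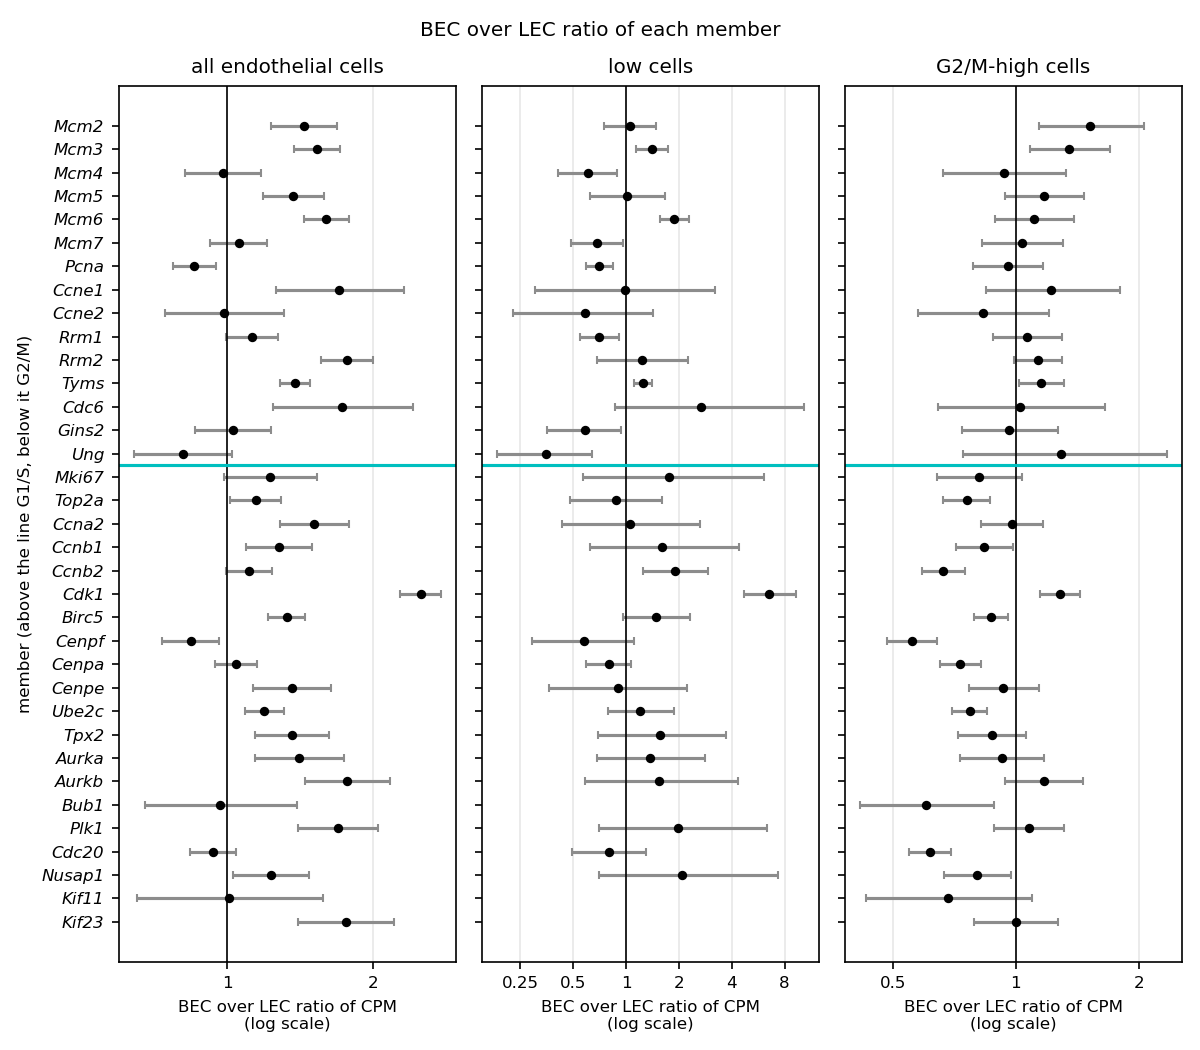
BEC over LEC ratio of CPM (log axis, vertical line at 1) for each member in all endothelial cells, in low cells and in G2/M-high cells, with counting intervals on counts divided by 4; members with 12 or fewer counts in the low cells of a sort are left out of the middle panel. Most G2/M members lie right of 1 in the left panel and left of 1 in the right panel, while Cdk1 lies right of 1 in all 3 and farthest in low cells.

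Cdk1 was also found in BEC cells with few counts of the other members after thinning, cells that at full depth still held G1/S counts (Tyms at 77.9 CPM). In cells with at most 1 count of the other 34 members it was at 35.9 CPM in BEC (32 to 40.2; 1640 cells) against 5.50 in LEC (3.92 to 7.52; 2365 cells), a ratio of 6.53 (4.67 to 9.35). A Cdk1 count was present in 27.4% of these BEC cells (25.3 to 29.7) and 2.41% of these LEC cells, with median depths of 18726 and 10390 counts, and after thinning in 12.7% and 1.56%. In cells with 0 counts of the other members after thinning Cdk1 was at 34.4 CPM in BEC (871 cells) against 5.10 in LEC (1555 cells). With no count of the other members at full depth it was at 37.1 CPM in BEC (26.2 to 50.9; 302 cells) against 5.14 in LEC (2.77 to 8.70; 1095 cells), a ratio of 7.22 (3.79 to 14.6), in cells whose median depths were 11485 and 8615 counts. Of the other G2/M members in low cells, Ccnb2 at 9.37 and 4.93 CPM (1.90, 1.26 to 2.92) and Kif23 at 2.48 and 0.43 CPM (5.83, 1.72 to 30.7, on 12 LEC counts) also had intervals above 1. The remaining 17 had intervals that held 1, among them Birc5 at 7.45 and 5.03 CPM, Top2a at 3.12 and 3.56 CPM and Cenpa at 11.1 and 13.9 CPM. In low cells 23.8% of non-member genes had intervals above 1 on the BEC side. From low to G2/M-high cells Cdk1 was 16.7-fold higher in BEC, the smallest step of the 20 G2/M members (median 85.2), and 84.8-fold higher in LEC.

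Read by vessel markers, the intervals of the Cdk1 level in low BEC cells overlapped between cells with and without each of 6 markers. The level was 37.9 CPM in low cells with 2 or more counts of Apln, a tip cell ligand, and 33.5 CPM in those with none. It was 34.5 CPM both with 2 or more and with 0 counts of the apelin receptor Aplnr. With 2 or more counts of the arterial connexin Gja5 it was 13.9 CPM (2.87 to 40.7) in 49 cells, an interval that held the level of 36.6 CPM in cells without Gja5. Among G1/S members in low cells, Mcm6 was 39.5 and 21.0 CPM in BEC and LEC (ratio 1.89, 1.56 to 2.29) and Tyms 77.9 and 62.5 CPM (1.25, 1.11 to 1.40). Pcna was 27.2 and 38.7 CPM (0.70, 0.59 to 0.84), and 6 G1/S members in all were lower in low BEC than in low LEC cells with intervals under 1, as were 39.0% of non-member genes.

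Other genes of the cycle, from lists not used to draw the classes, were higher in the high classes, but not only in the class of their own phase. Of 30 other G2/M genes, 29 were at least 2-fold higher in G2/M-high than in low cells in each sort, where 7.21% of non-member genes in BEC and 6.66% in LEC were. The exception was Pttg1 (securin), at 86.6 CPM in low and 77.1 CPM in G2/M-high BEC cells and at 107 and 74.1 CPM in LEC. Hmgb2, a chromatin protein, went from 90.9 to 1068 CPM in BEC and from 75.8 to 1036 CPM in LEC, and Cks2, a Cdk1 subunit, from 48.0 to 526 CPM and from 42.6 to 686 CPM. Of the 20 other G1/S genes 19 reached 5 CPM in G1/S-high or low cells, and 18 of these in BEC and 19 in LEC were at least 2-fold higher in G1/S-high than in low cells, where 3.60% and 3.81% of non-member genes were. Slbp, which binds histone mRNA, was at 105 CPM in low and 224 CPM in G1/S-high BEC cells and at 68.9 and 209 CPM in LEC. In G2/M-high cells, 19 of the 20 other G1/S genes in BEC and 20 in LEC were also at least 2-fold higher than in low cells. Of the other G2/M genes at 5 CPM or more, 14 of 16 in BEC and 9 of 13 in LEC were 2-fold higher in G1/S-high than in low cells. Their median log2 ratio there was 1.43 and 1.23, against 4.69 and 4.72 in G2/M-high cells. Of the histone and chromatin list, all 10 genes that reached 5 CPM were at least 2-fold higher in G2/M-high cells of each sort, among them Stmn1, a microtubule regulator, at 101 and 1729 CPM in BEC and 142 and 2562 CPM in LEC.

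The non-member genes highest in G2/M-high over low cells in both sorts were Pbk, Fam64a, Hmmr, Prc1, Tk1, Cdca3, Nuf2, Ckap2l, Esco2 and Cdca8. Pbk, a mitotic kinase, was at 2.11 and 265 CPM in BEC and at 1.88 and 281 CPM in LEC. Among those highest in G1/S-high over low cells were Hells, Fignl1, Cdt1, Chaf1b, Tk1, Asf1b, Cdc45 and Lig1. Hells, a chromatin remodeller, was at 2.14 CPM in low and 51.6 CPM in G1/S-high BEC cells and at 2.16 and 49.5 CPM in LEC. This ranking did not ask in which class a gene was highest. Tk1 was higher in G2/M-high than in G1/S-high cells, at 358 against 54.0 CPM in BEC and 298 against 34.6 CPM in LEC. Hells was near even, at 50.4 against 51.6 CPM in BEC and 51.2 against 49.5 CPM in LEC.

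Of the 6 G1 cyclins and kinases, 2 (Ccnd1 and Ccnd3) were 2-fold or more higher in BEC and 2 (Ccnd2 and Cdk6) in LEC. Of the inhibitors 1 of 11 (Cdkn2b) was 2-fold higher in BEC, and of the regulators 0 of the 7 at 5 CPM or more were in either sort. Of all genes at 5 CPM or more, 9.0% were 2-fold or more higher in BEC and 12.5% in LEC. Ccnd1, a D cyclin that carries growth signals to the cycle, was at 351 CPM in BEC against 152 in LEC (ratio 2.31, 2.20 to 2.44), and Ccnd3 at 210 and 87.0 CPM (2.42, 2.26 to 2.59). Ccnd2 went the other way, at 30.2 CPM in BEC against 142 in LEC, 4.69-fold higher in LEC. In BEC it was lower in G2/M-high than in low cells (8.52 against 34.4 CPM), while in LEC it was at 120 and 136 CPM. Of the inhibitors, Cdkn2d was at 36.1 CPM in low and 211 CPM in G2/M-high BEC cells and at 38.8 and 243 CPM in LEC, a 5.85-fold and a 6.25-fold difference. The antiproliferative genes Btg1 and Btg2 were lower in G2/M-high than in low cells, with ratios of 0.64 and 0.53 in BEC and 0.63 and 0.56 in LEC. The inhibitor Cdkn1a went the other way in BEC, from 214 CPM in low to 269 CPM in G2/M-high cells (1.26, 1.14 to 1.39), while in LEC it was at 304 and 280 CPM (0.92, 0.81 to 1.05). E2f1 was higher in G1/S-high than in low cells, at 51.8 against 7.07 CPM in BEC and 49.2 against 3.9 CPM in LEC. This was not particular to G1/S-high cells, since its G2/M-high levels (BEC 60.5 CPM, LEC 43.8 CPM) had overlapping intervals with theirs. Of 9 regulators reaching 5 CPM in G1/S-high or low cells of a sort, 4 (BEC) and 3 (LEC) were 2-fold higher in G1/S-high cells. Myc was 1.92-fold (BEC) and 1.65-fold (LEC) higher there, while the intervals of E2f4 (1.04 and 1.15) and Rb1 (0.64 and 0.50) held 1.

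Some genes were lower in the high classes. In low cells over G2/M-high cells 5.02% of non-member genes in BEC and 6.24% in LEC were at least 2-fold higher, and over G1/S-high cells 1.89% and 3.79%. The genes leading in low over G2/M-high cells in both sorts were Bmp4, Mt2, Csf3, Tmem150a, Sult1a1, Col3a1, Hotairm1, Pgf, Adm and Fbxo32. G1/S-high cells did not enter this ranking. There Col3a1 was higher than in low cells, at 12.5 against 6.65 CPM in BEC and 22.5 against 10.9 CPM in LEC. Sult1a1 was near even in BEC (44.6 against 43.8 CPM), and the others were lower in both sorts. Csf3 was at only 0.49 CPM in BEC and 0.26 CPM in LEC G2/M-high cells, so its place rests on few counts. Adm (adrenomedullin, a vasoactive peptide) was at 160 CPM in low and 53.2 CPM in G2/M-high BEC cells and at 347 and 94.5 CPM in LEC. Pgf, a VEGF family ligand, was at 61.5 and 11.4 CPM in BEC and at 347 and 114 CPM in LEC. Esm1, a gene of tip-like blood endothelium, was at 1854 CPM in low and 565 CPM in G2/M-high BEC cells, and Flt1, a VEGF receptor, at 1279 and 744 CPM. Fibroblast markers, Col3a1 among them, summed to 33.1 CPM in low and 5.36 CPM in G2/M-high BEC cells, while in LEC they summed to 215 and 226 CPM. Mural markers summed to 197 and 87.5 CPM in BEC and to 58.1 and 39.6 CPM in LEC. Their part in these values was not tested.

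The share of G2/M-high cells was then read by single endothelial markers. In BEC it was 11.8% (10.1 to 13.7) among 1270 cells with 2 or more counts of Aplnr and 6.11% (4.94 to 7.47) among 1456 cells with none. It was lower with Npr3, a natriuretic peptide receptor, at 1.48% of 135 cells (0.18 to 5.25) against 9.09% of cells without it (8.07 to 10.2). With Esm1 it was 6.15% (5.13 to 7.29) against 10.9% (8.76 to 13.3). For Apln the shares were 8.07% and 8.18%, and for the venous marker Ackr1 (5.41% and 8.69%) and Gja5 (3.75% and 8.72%) the intervals overlapped. Cells with 1 count of Esm1 had 15.8% G2/M-high cells, more than either group, so the share did not fall evenly with the marker. Those with 1 count of Apln (11.3%), Ackr1 (13.1%) or Gja5 (9.52%) were also above both groups. For Aplnr (7.71%) and Npr3 (6.02%) they lay between the groups.

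**Figure D5:**
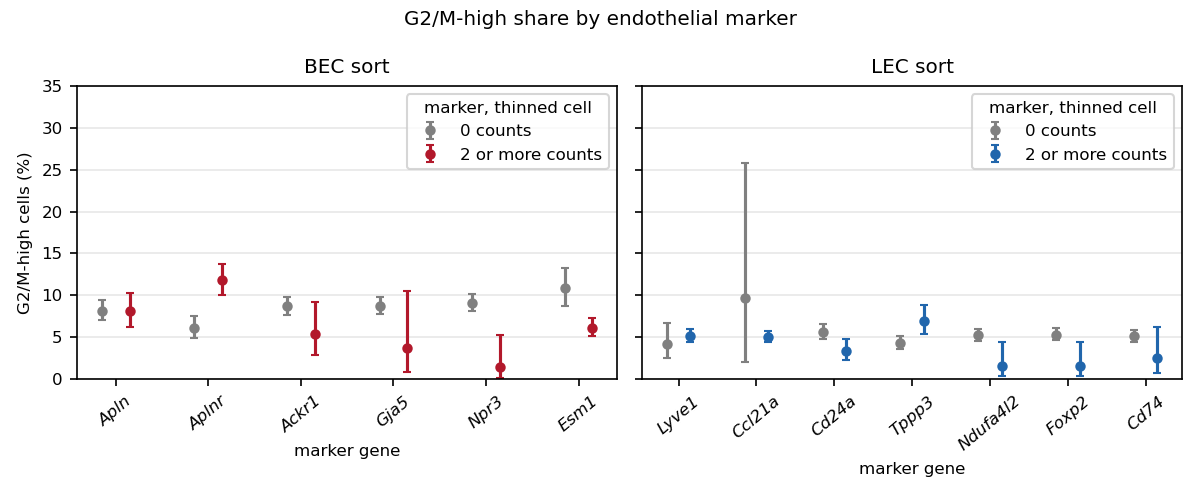
Share of G2/M-high cells among thinned cells with 0 counts (grey) and with 2 or more counts (colour) of each endothelial marker, by sort, with exact Clopper-Pearson intervals. The intervals are apart for Aplnr, Npr3 and Esm1 in the BEC sort and for Cd24a, Tppp3, Ndufa4l2 and Foxp2 in the LEC sort.

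In LEC the differences for markers with intervals apart were smaller in percentage points, though not all were smaller as ratios. The share was 6.92% (5.35 to 8.78) among 896 cells with 2 or more counts of Tppp3, a microtubule-associated protein, and 4.30% (3.60 to 5.08) among cells with none. It was 3.36% with and 5.66% without the surface protein Cd24a. Only 3 of 194 cells with 2 or more counts of Ndufa4l2, a hypoxia-responsive gene, were G2/M-high (1.55%, 0.32 to 4.45), against 5.24% without, and 3 of 195 with Foxp2 (1.54%, 0.32 to 4.43), against 5.31%. For the lymphatic markers Lyve1 (5.17% and 4.23%) and Ccl21a (5.02% and 9.68%) and for Cd74 (2.48% and 5.12%) the intervals overlapped. Cells with 1 count had larger shares than both groups for Tppp3 (8.30%), Ndufa4l2 (6.90%), Cd74 (8.64%) and Lyve1 (5.43%). For Ccl21a, Cd24a and Foxp2 they lay between the groups. Of the 4 separations in LEC, 2 were left among own-lineage cells or at a cut of 10 counts, and 1 without cells of other types, without the deepest 5% of cells, without cells under 0.5% mitochondrial counts or at a cut of 3 counts. In BEC 3 markers had intervals apart in each of the 10 alternatives run.

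Near the pigment limit few cells were at stake. Of LEC-sort cells with 15 to 19 pigment counts 1 of 14 was G2/M-high, and of those with 20 to 24 counts 0 of 6. The BEC sort had 22 cells at or over the limit. Of the cells kept, 3173 of 3206 in BEC and 3710 of 4128 in LEC had under 5 pigment counts, with G2/M-high shares of 8.45% and 4.99%. A wider list of melanocytic markers summed to 24.1 CPM in the BEC cells kept and 137 CPM in the LEC cells kept.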

How the data were processed

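Single-cell 3′ libraries of endothelial cells sorted from MT-ret tumors were read with Cell Ranger 2.1.1 on build mm10, per the submitters' processing notes. The authors deposited 1 matrix of counts of unique molecular identifiers per gene and cell, 28692 genes by 7635 cells, and 0 columns belonged to no sort. Gene positions are those of GENCODE on GRCm38. Levels are counts summed over the cells of a sort or class, scaled as CPM. Cells were thinned without replacement to 5000 counts (seed 1), no cell was shallower, and classes were drawn with Python 3.11.15, numpy 2.4.6, scipy 1.17.1, pandas 2.3.3 and matplotlib 3.10.9. The code was tested on simulated data. Intervals on levels use counts divided by 4 where whole counts had been planned, because of the pattern of entries described above, and a count of 0 was read as up to 3 molecules, or 12 counts.

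Members and lists were chosen with earlier results of these data known. Named non-members are the 4 most abundant of each list and the 10 leading genes of each class ranking, leaving out mitochondrial, ribosomal and unnamed model genes. Some genes of the G1/S-high ranking are not reported here. The alternatives were other pigment limits, scalings, cell filters, cuts, depths, minimum levels and pseudocounts.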

Additional observations from a re-analysis of the deposited data

Results flagged for a closer look

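Ube2c, the conjugating enzyme of the anaphase-promoting complex, had a ratio of cells high in G2/M members alone over cells high in both lists of 0.748 in the BEC sort and 1.46 in the LEC sort. The intervals lay on opposite sides of 1, and the difference between the sorts was not tested. Ube2c overlaps Tnnc2 on the other strand.

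Of the LEC-sort cells at or over the pigment limit, which enter no comparison, 22 of 279 were G2/M-high (7.89%, 5.01 to 11.7). These cells had a median of 27894 counts, against 10594.5 in the cells kept.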

How the results depend on the processing

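No paired analysis was possible because the cell names carry the sort and no library, and leaving out a library was not possible for the same reason. Of 21 alternatives, those chosen after seeing the data were the filter on mitochondrial counts, the cut of 20 counts, the rounded counts, leaving out barcodes found in both sorts, cells with no count of the other members at full depth and, for class shares, leaving out cells of other types. Of 455 member ratios recomputed 22 left their counting interval, and the 1 member 2-fold or more apart (Cdk1) did not cross 1. Ratios nearer 1 did cross it in 24 cases, for 7 members (Bub1, Ccne2, Cdc20, Cenpf, Gins2, Kif11 and Mcm4), of which 6 had intervals that held 1. The seventh, Cenpf, was at 1.02 without cells of other types. Of the 35 members, 27 to 32 had a BEC over LEC ratio above 1 in the alternatives that recomputed it. The number of members 2-fold higher in BEC was 3 with the mean of per-cell CPM, 3 without cells of other types and 4 without the deepest 5% of cells. At 1.5-fold, a minimum of 20 CPM left 3 G1/S and 3 G2/M members higher in BEC, the G2/M count was 9 without cells of other types and 9 without the deepest cells, and in the last setting 1 G1/S member was higher in LEC.

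The BEC share of G2/M-high cells was 7.55% without the deepest cells, 13.2%, 6.18% and 4.02% at cuts of 3, 10 and 20, 10.8% at 2 counts of 2000, 24.3% unthinned and 10.5% with counts divided by 4 and rounded up (2 of 1500). The LEC share was 4.18%, 8.82%, 3.54%, 2.69%, 7.0%, 8.75% and 5.45% in the same order. G1/S-high shares in BEC were 15.3%, 2.65% and 0.749% at the cuts, 11.1% at 2 of 2000, 31.8% unthinned and 10.5% with rounded counts. In LEC they were 16.7%, 1.99%, 0.581%, 11.7%, 21.1% and 9.67%. The order of the sorts for G1/S-high cells turned at the cut of 3 and at 2 of 2000. G1/S members higher in G2/M-high than in G1/S-high cells numbered 14 in both sorts at a cut of 3 and 3 in both at 10. LEC markers with intervals apart numbered 2 among own-lineage cells and at a cut of 10, and 1 without cells of other types, without the deepest cells, at a cut of 3 and without cells under 0.5% mitochondrial counts. Except where a setting says what it leaves out, the cause was not tested.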
